A study of Rattus norvegicus with 99 samples.

Results

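Thrombospondins are secreted, calcium-binding matrix glycoproteins that bind collagens, integrins and growth factors without building fibres themselves. Thbs1 and Thbs2 assemble as trimers and carry the repeats that engage Cd36, and Thbs1 can release TGF-beta from its latent complex; Thbs3, Thbs4 and Comp assemble as pentamers that lack those repeats. In the heart, thrombospondins are best known as stress-responsive products of fibroblasts, vessels and, for Thbs4, also of muscle cells, where it binds the endoplasmic reticulum sensor Atf6. The 4 genes Thbs1, Thbs2, Thbs3 and Thbs4 were taken by their symbols from the deposited whole-heart table, in which they are 4 of 17337 genes, and followed through 99 polyadenylated RNA-seq libraries. The rule uses the symbol alone. Comp, the other gene of the family, and the partners of thrombospondins were read as lists beside them.

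The libraries came from the left ventricle (LV), septum (Spt) and right ventricle (RV) of 33 male rats, F1 offspring of a female Wistar Kyoto and a male Lewis parent. A clip that does not narrow the vessel at first was set around the pulmonary artery (PAB) or the aorta (AOB) of young rats and came to constrict it with growth, and sham rats were operated without banding. At the stage of hypertrophy, at an age of 11 weeks and 7 weeks after surgery, there were 7 Sham-H, 7 PAB-H and 7 AOB-H rats. At the stage of failure there were 3 PAB-F rats with 2 Sham-RF controls, at 27 weeks of age and 21 weeks after surgery, and 4 AOB-F rats with 3 Sham-LF controls, at 30 and 24 weeks. No gene was altered in any group. Ages and times are those of the labels; other text of the study gives different weeks. Each library is a piece of whole tissue with all of its cell types and not a sorted cell type, and the constriction reached in each rat was not used here. Fewer cells of a type and less RNA per cell cannot be told apart in such tissue.

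Counts assigned to genes ran from 12.1 to 24.2 M per library. Levels are given in CPM, the counts of a gene relative to its library's total after TMM scaling over all 99 libraries, and comparisons between genes use the authors' FPKM, which divides by length. Library numbers in the labels fall into 3 series: the LV and RV of the 11-week rats are spread over all of them, the LV and RV of the older rats are in series 2, and the septa are in series 2 and 3, those of the older rats in series 3 only. Defining ventricular genes were present in every library, but in 3 of 33 rats (AOB-H 1, PAB-H 2 and Sham-H 6) the genes that part LV from RV differed in the direction opposite to the other rats. The labels were kept. Without these rats no member was called in the comparisons that hold them, as with them, and Thbs4 is also given without them where they bear on its value, but the genes called between RV and LV of Sham-H went from 0 to 149.

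To set the gene with the called difference beside its relatives, the stretch of 250 bases upstream of each start is shown, as RefSeq gives it on GRCr8, a later build than the Rnor6.0 of the counts. Thbs1, Thbs3 and Thbs4 matched an entry. Thbs4 (NCBI gene 29220) lies on chromosome 2, minus strand, with its window at chr2:25760346-25760595; Thbs3 (gene 681309) lies on chromosome 2, plus strand, at chr2:176919349-176919598; Thbs1 (gene 445442) lies on chromosome 3, plus strand, at chr3:125510000-125510249. Capitals mark matches on either strand to the GC box GGGCGG, the M-CAT core GGAATG, the Smad box GTCTG and the CCAAT box CCAAT.
Thbs4: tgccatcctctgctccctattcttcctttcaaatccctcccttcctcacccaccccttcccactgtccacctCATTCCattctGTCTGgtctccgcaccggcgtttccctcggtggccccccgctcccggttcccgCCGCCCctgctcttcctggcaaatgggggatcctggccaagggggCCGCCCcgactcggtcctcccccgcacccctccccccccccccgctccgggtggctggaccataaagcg
Thbs1: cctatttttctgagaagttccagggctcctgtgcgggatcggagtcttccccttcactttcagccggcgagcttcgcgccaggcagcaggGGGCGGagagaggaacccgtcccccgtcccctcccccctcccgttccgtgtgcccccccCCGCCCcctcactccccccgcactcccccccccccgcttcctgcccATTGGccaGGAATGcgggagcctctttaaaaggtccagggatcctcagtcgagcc
Thbs3: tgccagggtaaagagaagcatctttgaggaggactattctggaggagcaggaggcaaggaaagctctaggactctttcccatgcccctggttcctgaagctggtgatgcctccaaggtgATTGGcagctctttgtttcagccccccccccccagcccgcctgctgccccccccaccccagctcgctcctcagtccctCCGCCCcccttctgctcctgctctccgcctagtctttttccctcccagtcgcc

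The windows were rich in G and C, at 67.6% in Thbs4, 67.6% in Thbs1 and 61.6% in Thbs3, against a median of 51.2% over 33469 promoters. Each held the GC box, the letters read by Sp and Klf factors, which occur in 30.5% of all promoters. The M-CAT core, the letters read by Tead factors, was found in Thbs4 at 178 to 173 bases before the start and in Thbs1 at 47 to 42 bases before it, and in 12.1% of all promoters. The Smad box was found in Thbs4 alone among the 3, with 42.9% of all promoters holding it, and the CCAAT box in Thbs1 and Thbs3, with 34% of all. The letters TATAAA (12.9% of all promoters), the AP-1 site TGANTCA (6.34%) and the CRE core TGACG (18.2%) were in none of the 3 windows. None of these motifs overlapped another.

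Thbs2 was the most abundant member per length, with a median of 7.63 FPKM over the 99 libraries, before Thbs1 at 3.74, Thbs3 at 3.27 and Thbs4 at 0.744 FPKM. Thbs2 stayed between 29.0 and 65.6 CPM and Thbs3 between 7.32 and 20.1 CPM, whereas Thbs1 ran from 2.64 to 33.7 CPM and Thbs4 from 0.650 to 59.9 CPM. All 4 genes were counted in every library, Thbs4 with as few as 10 and as many as 871 reads, so its lowest levels carry a sizeable counting error.

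**Figure D1:**
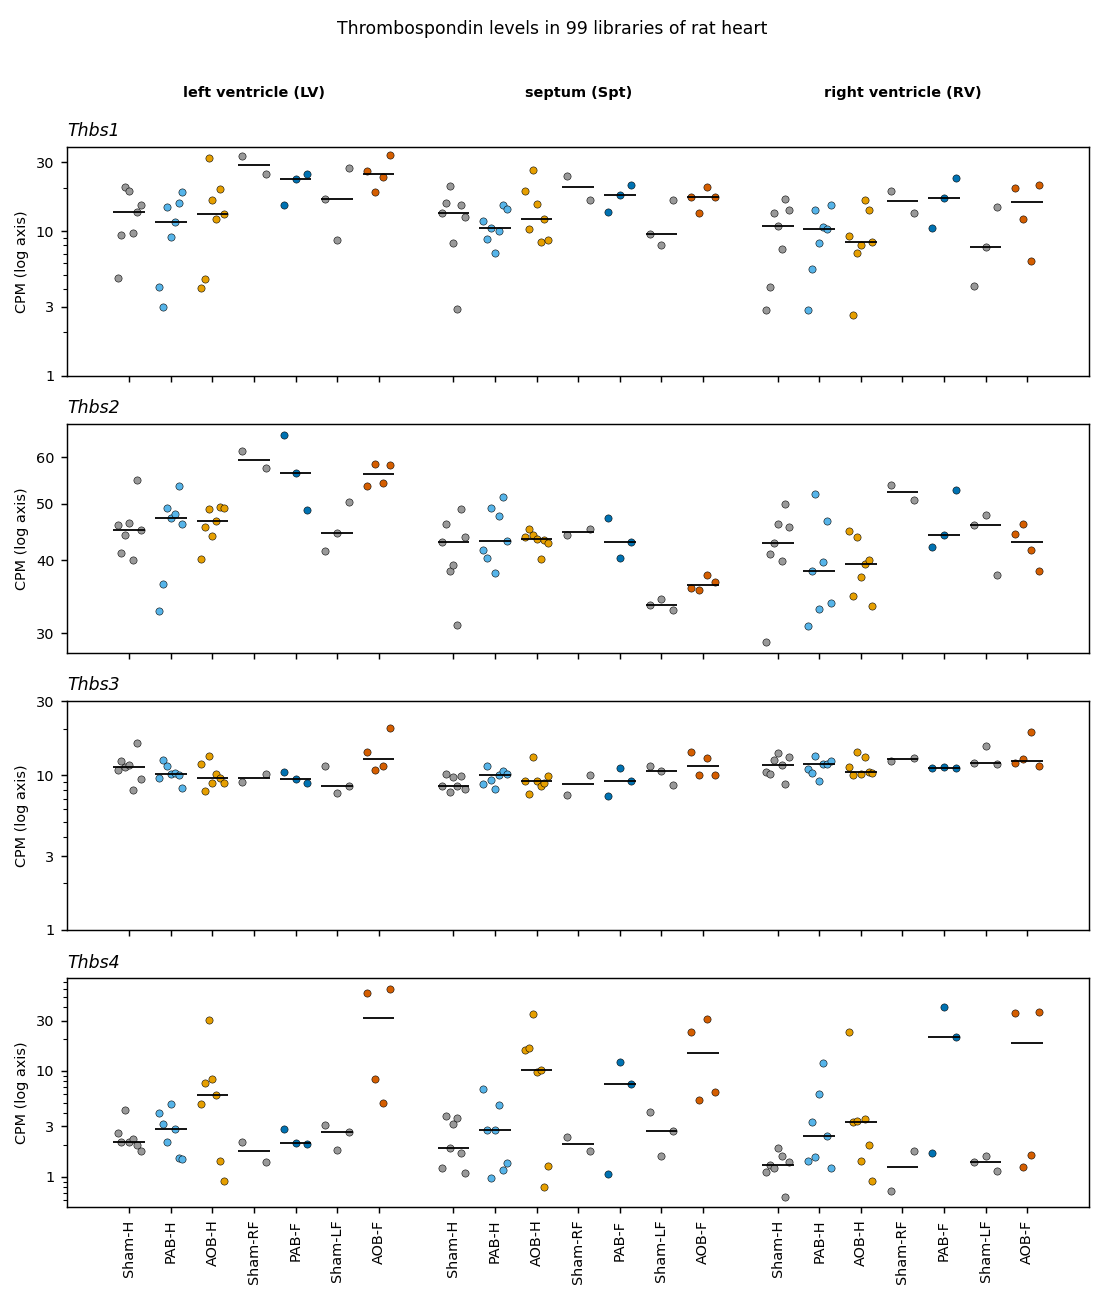
Level of each thrombospondin in each of the 99 libraries, in CPM on log axes that differ between panels. Each point is a library, columns are the 7 conditions in LV, septum and RV, and bars are group medians (grey, shams; blue, PAB; orange, AOB). Thbs4 reaches 30 CPM or more in AOB-H, AOB-F and PAB-F libraries while every sham library is at or under 4.31 CPM.

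The first question was which thrombospondins respond to banding, in which chamber and at which stage. Of 12 comparisons of a banded group with its shams, each over 4 members, a single value passed edgeR's quasi-likelihood test at an adjusted p under 0.05: Thbs4 in the LV of AOB-F rats. In that comparison 1 of 4 members was called, where 0.837% of 11703 genes were. In the AOB-F septum none of the members was called, with 0.232% of 11624 genes called. In the other comparisons edgeR called no gene in this fit, with 110 to 1851 genes under an unadjusted p of 0.05, while DESeq2 called 13 in the AOB-H septum, 1 in the PAB-F RV, 3 in the AOB-F RV and 0 in the rest. Under other settings edgeR called 792 genes in the PAB-F septum with only the groups compared, 76 in the AOB-F RV with library series as a covariate and 2 in the AOB-H septum with the replicate block. The PAB-H and AOB-H comparisons share the Sham-H rats.

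**Figure D2:**
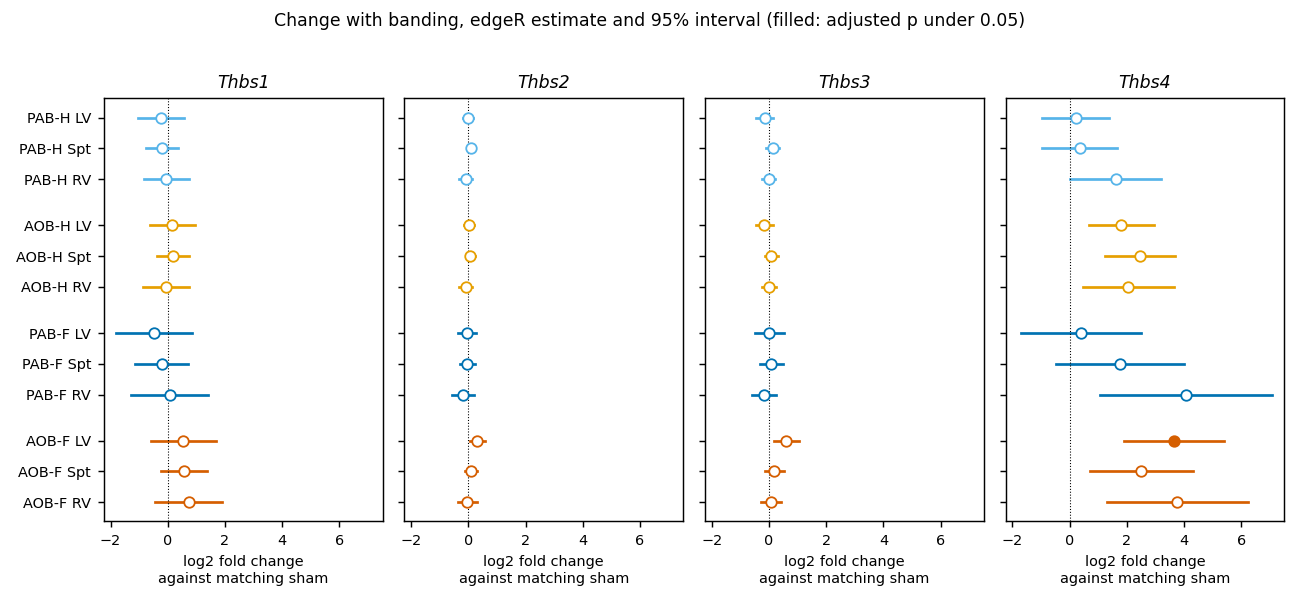
Log2 fold change of each thrombospondin in the 12 comparisons of banding with the matching shams, as edgeR estimates (points) with 95% intervals (lines). The filled point is the value with an adjusted p under 0.05, Thbs4 in the AOB-F LV at 3.65, and open points did not pass. The estimates of Thbs4 lie above 0 in all 12 comparisons, AOB and PAB alike, while those of Thbs1, Thbs2 and Thbs3 lie between -0.47 and 0.73.

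Thbs4 rose in the LV of AOB-F rats. Its level was 54.6, 8.41, 5.01 and 59.9 CPM in AOB-F rats 1 to 4 and 3.11, 1.80 and 2.65 CPM in Sham-LF rats 1 to 3. The groups did not overlap, yet rats 1 and 4 stood far above rats 2 and 3, which exceeded the highest sham by much less. The log2 fold change was 3.65 ± 0.86 (SE; n = 4 and 3; edgeR adjusted p = 0.0352), with a 95% interval of 1.89 to 5.41. The estimate stayed between 3.15 and 4.00 whichever rat was left out, but the call did not: it held without AOB-F 2 or 3 and was lost without AOB-F 1, AOB-F 4 or any 1 of the Sham-LF rats, with adjusted p from 0.00486 to 0.218. It was also lost with the replicate number as a block (edgeR adjusted p = 0.0708), with only the groups compared in the fit (0.344) and within library series 2 (0.0627), where 2, 0 and 0 genes were called in all in place of 98.

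The septum and the unbanded RV of the same AOB-F rats held high Thbs4 in some rats as well. In the AOB-F septum the levels were 23.6, 5.33, 31.0 and 6.27 CPM against 4.07, 1.58 and 2.71 CPM in Sham-LF. These groups did not overlap either, and the log2 difference was 2.50 ± 0.88 (edgeR adjusted p = 0.196). In the AOB-F RV they were 35.0, 1.24, 1.62 and 36.1 CPM against 1.37, 1.56 and 1.14 CPM, so that 2 rats stood far above and the other two lay among the shams or just above them; the log2 difference was 3.77 ± 1.20 (edgeR adjusted p = 0.328). Rats 1 and 4 were the high ones in both ventricles and rats 1 and 3 in the septum. The study's sample sheet exchanges the septum libraries of AOB-F rats 1 and 2 relative to the labels; the group values are the same either way, but with that exchange rat 1 would be low in the septum.

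Groups free of overlap were common in so small a design. In the AOB-F LV, Thbs2 and Thbs4 were the 2 of 4 members with every banded rat above every sham, as were 5.91% of all genes tested. In the AOB-F septum the same 2 of 4 members were, with 5.26% of all genes. Thbs1 in the PAB-F LV and Thbs3 in the PAB-F RV lay below every sham in every banded rat. Counting either direction, 2171 of 11703 genes in that LV comparison and 4150 of 11734 in that RV comparison were free of overlap.

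At the earlier stage Thbs4 lay above every sham in most AOB-H rats, without passing the test. In the AOB-H septum it was 15.8, 16.5, 34.4, 9.88, 10.1, 0.803 and 1.26 CPM in rats 1 to 7, against a lowest level of 1.08, a median of 1.88 and a highest level of 3.74 CPM in Sham-H. The first 5 rats were above every sham, rat 6 was below every sham and rat 7 was within the sham range. The log2 difference of 2.47 ± 0.60 had an adjusted p of 0.187 and the 12th lowest p of 11624 genes in that septum comparison. Leaving out 1 rat gave edgeR adjusted p from 0.0318 (without rat 6) and 0.0498 (without rat 7) to 0.417, and the other settings gave 0.0579 (DESeq2) to 0.766.

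In the AOB-H LV, Thbs4 was 4.87, 7.62, 30.5, 8.33, 5.90, 1.40 and 0.911 CPM against 1.74, 2.14 and 4.31 CPM as the lowest, median and highest level in Sham-H. Again rats 1 to 5 were above every sham, while rats 6 and 7 were below every sham. The log2 difference was 1.80 ± 0.56 (edgeR adjusted p = 0.810), 0.98 ± 0.48 without rat 3 and 1.85 ± 0.63 without the 3 rats with opposite ventricles. Within the library series it was 1.42 in series 1, 2.38 in series 2 and -0.67 in series 3, which holds rats 6 and 7 of each group. All LV libraries of series 3 at this stage, shams included, lay at 0.911 to 1.98 CPM, and the part of the series in this difference was not tested. AOB-H 6 and 7 were also low in the septum, where rats 2 to 4 share series 3 with them and were high.

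In the AOB-H RV, which the aortic clip does not load directly, the levels were 23.3, 3.26, 3.36, 1.40, 3.54, 2.00 and 0.920 CPM, against 0.650, 1.29 and 1.89 CPM as the lowest, median and highest level in Sham-H. Rats 1, 2, 3, 5 and 6 were above every sham. The log2 difference of 2.05 ± 0.78 (edgeR adjusted p = 1.00) rested on rat 1, one of the rats whose ventricles differed in the opposite direction. Without the 3 such rats it was 0.75 ± 0.76, and without AOB-H 1 alone 0.88.

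Pulmonary banding gave its highest Thbs4 values in the RV. In PAB-F rats the RV held 1.68, 40.7 and 20.8 CPM against 0.735 and 1.74 CPM in Sham-RF, a log2 difference of 4.06 ± 1.47 (edgeR adjusted p = 0.524). The septum held 1.07, 12.1 and 7.48 CPM against 2.37 and 1.74 CPM, a difference of 1.76 ± 1.10 (edgeR adjusted p = 0.816). The LV held 2.86, 2.09 and 2.05 CPM against 2.13 and 1.38 CPM, a difference of 0.40 ± 1.02. Rats 2 and 3 were thus high in the RV and septum and not in the LV, and rat 1 lay between its shams in the RV and below them in the septum.

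In PAB-H rats the RV held 1.20 to 12.0 CPM with a median of 2.43 CPM, and 4 of 7 rats were above every Sham-H rat. The log2 difference of 1.61 ± 0.78 did not pass the test (edgeR adjusted p = 1.00), and it was 1.52 without the 3 rats whose ventricles differed in the opposite direction. Leaving out 1 rat put the RV difference between 1.02 and 1.77, and the other settings put it between 0.82 and 2.04. The differences in the PAB-H LV, 0.21 ± 0.57, and septum, 0.35 ± 0.64, were smaller than their errors.

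**Figure D3:**
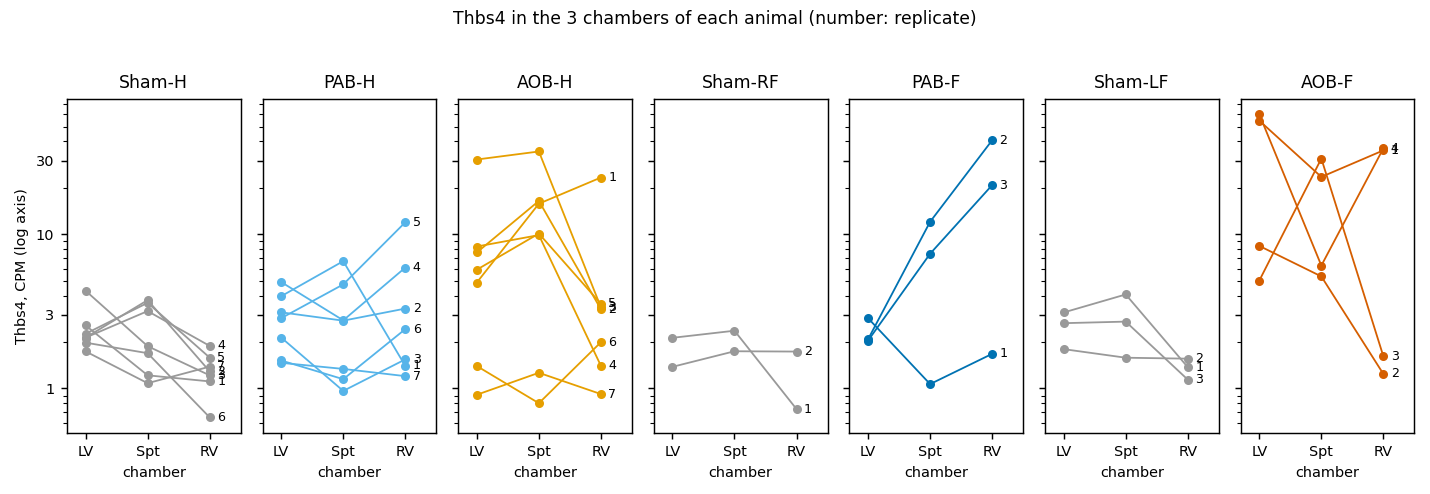
Thbs4 in the LV, septum and RV of each rat, in CPM on a log axis, with a line per rat, a panel per condition and the replicate number at the RV value. AOB-H rats 6 and 7 are the lowest of their group in LV and septum, PAB-F rats 2 and 3 climb from the LV to the RV, and the order of the AOB-F rats differs between septum and ventricles.

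Whether the Thbs4 response was larger in the loaded than in the other ventricle, or at the later than at the earlier stage, was tested as a difference of differences. The PAB-F difference in RV less that in LV was 3.67 ± 1.76 on the log2 scale, and the AOB-F difference in LV less that in RV was -0.12 ± 1.37. Neither passed (edgeR adjusted p = 0.999 and 0.989). The difference at F less that at H was 1.85 ± 0.97 in the LV under AOB and 2.45 ± 1.58 in the RV under PAB, also without passing (edgeR adjusted p = 0.678 and 1.00). edgeR called no gene in these 4 tests, with 286 to 890 genes under an unadjusted p of 0.05, and DESeq2 called 1 gene, in the PAB-F test. The 95% interval of the PAB-F difference ran from 0.17 to 7.17.

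Over the 21 groups the mean of Thbs4 was highest in the AOB-F LV at 32.0 ± 29.3 CPM (SD, n = 4), then in the PAB-F RV at 21.1 ± 19.5 (n = 3), the AOB-F RV at 18.5 ± 19.7 (n = 4), the AOB-F septum at 16.5 ± 12.8 (n = 4) and the AOB-H septum at 12.7 ± 11.4 CPM (n = 7). None of these neighbours in the order differed by more than the SD of either group. All 9 sham groups lay at or under 2.79 CPM. In Sham-H the RV had 1.30 ± 0.39 CPM and the LV 2.45 ± 0.86 CPM (SD, n = 7 each), a log2 difference of -0.90 ± 0.73 (edgeR adjusted p = 0.894), which was -0.82 ± 0.78 without the rats with opposite ventricles.

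As a share of the summed FPKM of the 4 members, Thbs4 made up 4.75% ± 0.98 of the Sham-LF LV (SD, n = 3) and 26.5% ± 19.4 of the AOB-F LV (n = 4), where single rats ran from 7.33% to 44.5%. In the RV its share was 2.18% in Sham-RF (n = 2) and 24.3% ± 20.2 in PAB-F (n = 3), ranging from 3.64% to 44.1%. The mean share of Thbs2 was 49.0% in the Sham-LF LV and 34.9% in the AOB-F LV.

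**Figure D4:**
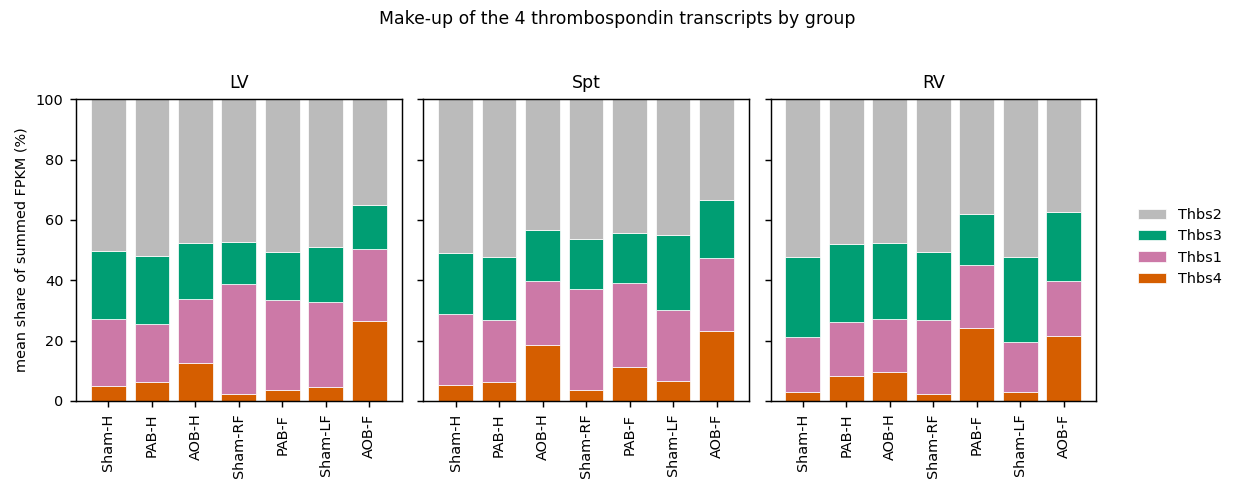
Mean share of each thrombospondin in the summed FPKM of the 4 members, in percent, for the 7 conditions in each chamber. Bars stack to 100%, and the spread between rats is given in the text. The Thbs4 share is 26.5% in the AOB-F LV, 24.3% in the PAB-F RV and under 7% in every sham group.

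Thbs2, a matrix thrombospondin that holds down vessel growth and shapes collagen fibrils, did not pass the test in any comparison. In the AOB-F LV it was 53.6, 58.3, 54.2 and 58.3 CPM against 41.5, 44.5 and 50.3 CPM in Sham-LF. All 4 rats were above the shams, and the log2 difference was 0.30 ± 0.13 (edgeR adjusted p = 0.288). The Sham-RF LV, at 61.4 and 57.5 CPM, was as high as AOB-F. In the septum Sham-LF held 33.6, 34.4 and 32.9 CPM and Sham-RF 44.1 and 45.1 CPM, so the sham values of 27 weeks were the higher ones. In the other banding comparisons its estimates lay between -0.18 and 0.10.

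Thbs3, a pentamer, had a positive estimate in the AOB-F LV, with levels at 14.1, 10.8, 11.4 and 20.1 CPM against 11.4, 7.68 and 8.55 CPM in Sham-LF. Rats 1 and 4, the same as for Thbs4, were above every sham and the other rats were not; the log2 difference was 0.61 ± 0.21 (edgeR adjusted p = 0.159). This was 0.78 ± 0.25 more than the AOB-H response in the LV (adjusted p = 0.462), which was -0.17 ± 0.14, and 0.53 ± 0.26 more than the AOB-F response in the RV (adjusted p = 0.926). In Sham-H the septum had 8.98 ± 0.94 CPM, the LV 11.4 ± 2.53 and the RV 11.5 ± 1.84 CPM (SD, n = 7 each). The log2 difference of septum from LV was -0.34 ± 0.13 and of septum from RV -0.36 ± 0.13, or -0.26 and -0.44 without the rats with opposite ventricles. Neither value passed (edgeR adjusted p = 0.437 and 0.251), where 0.0923% and 0.772% of 11924 genes did, and no other member was called in these chamber tests. Mtx1, the mitochondrial import gene that neighbours Thbs3 on GRCr8, was at 22.2 to 45.4 CPM and at -0.10 ± 0.19 in the AOB-F LV.

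Thbs1, the member that can activate TGF-beta and that platelets store, did not pass the test in any comparison as fitted here, before or after adjustment. In the AOB-F LV it was 26.2, 18.7, 23.7 and 33.7 CPM against 16.7, 8.65 and 27.5 CPM in Sham-LF, and the groups overlapped, with a log2 difference of 0.54 ± 0.56 and a 95% interval of -0.60 to 1.67. The AOB-F differences in septum, 0.56 ± 0.40, and RV, 0.73 ± 0.57, were of like size. The PAB-F differences were -0.47 ± 0.65 in the LV, -0.22 ± 0.46 in the septum and 0.07 ± 0.66 in the RV. In the PAB-F LV all 3 rats lay below both shams. The differences at the earlier stage lay between -0.24 and 0.17.

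The level of Thbs1 moved with the library series. In the LV of the 11-week rats it was 2.98 to 9.41 CPM in series 1 (n = 6), 9.12 to 32.0 CPM in series 2 (n = 9) and 13.3 to 19.7 CPM in series 3 (n = 6), with sham and banded rats in each. In the RV the medians of the same series were 3.50, 10.6 and 14.0 CPM. In the LV, series 1 lay below nearly all of series 2 and below all of series 3, whatever the operation. Thbs2 medians in the LV ran from 40.7 to 49.2 CPM over the series and Thbs3 medians from 9.55 to 11.3 CPM. What the series share besides their numbers is not stated, and its part in the level of Thbs1 was not tested.

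**Figure D5:**
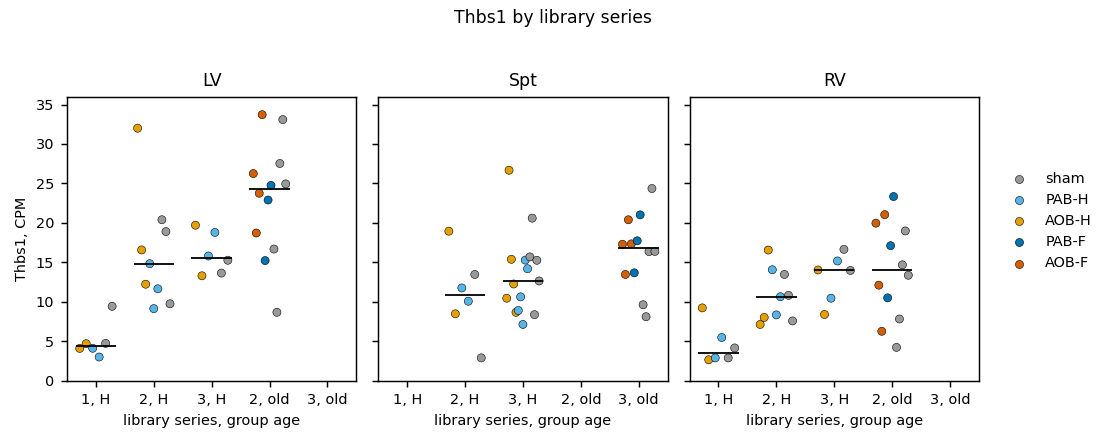
Thbs1 in each library by library series, in CPM, with the 11-week groups (H) and the older groups in separate columns; bars are medians. In LV and RV the series 1 libraries lie at 2.64 to 9.41 CPM, most of them under every library of series 3, in shams as in banded rats.

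Age was read from the shams alone. Thbs1 in the LV was 24.9 and 33.1 CPM in Sham-RF, 8.65 to 27.5 CPM in Sham-LF and 4.71 to 20.4 CPM in Sham-H. The log2 difference of older from younger shams was 0.78 ± 0.42 (edgeR adjusted p = 0.788), and it was 0.47 ± 0.34 within series 2. Immediate early genes respond to handling of tissue within minutes. Among the LV shams they also summed highest in Sham-RF, at 480 and 573 CPM against 241 to 457 CPM in Sham-H. Their sums in Sham-RF were 445 and 546 CPM in the septum and 411 and 617 CPM in the RV. The part of these genes in the level of Thbs1 was not tested. With the replicate number as a block the Thbs1 difference in the LV was 1.44 ± 0.33 and was called (edgeR adjusted p = 0.0231), with 961 genes called in place of 2. As fitted here none of the members was called between older and younger shams, where 0.0171% of genes were called in the LV, 0.103% in the septum and 0.0852% in the RV. The Thbs4 estimates were -0.21 ± 0.65, 0.07 ± 0.74 and 0.01 ± 0.93 in LV, septum and RV.

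Comp, a cartilage pentamer of the same family, was scarce, at no more than 6.40 CPM in any library. In the LV it was 5.74, 1.16, 0.618 and 6.40 CPM in AOB-F against 0.945, 0.762 and 1.06 CPM in Sham-LF. Rats 1 and 4 were again the high ones in the LV, rat 3 was below every sham, and the log2 difference of 1.89 ± 0.51 did not pass (edgeR adjusted p = 0.0676). Elsewhere it was highest in AOB-F 1, at 3.43 CPM in the septum and 3.37 CPM in the RV. It reached 2.81 CPM in the septum of AOB-H 3 and 2.58 CPM in the RV of PAB-F 2. The septa of AOB-F 3 and Sham-LF 1 held 2.21 and 2.04 CPM.

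The partners of thrombospondins were read in the AOB-F LV, the comparison with the called member, against a median of 0.01 over all genes tested. Of these 11703 genes 0.837% were called, so 0 calls in a short list is the usual outcome. All calls of list genes in this LV comparison are from the fit over the 7 conditions, and the settings that ended the Thbs4 call left 2, 0 and 0 genes called in all. Of 12 receptor genes 1 was called, the endocytic receptor Lrp1, at 0.52 ± 0.12 (edgeR adjusted p = 0.0338), and the median was 0.17. Of 8 genes of the TGF-beta axis 3 rose: Tgfb2, a latent growth factor, by 1.94 ± 0.38, Ltbp2, a matrix protein of the latent TGF-beta binding family, by 3.58 ± 0.68 and Ctgf, a response gene of the pathway, by 2.37 ± 0.50; the median was 0.37. Tgfb2 was also called in the AOB-F septum. The 13 genes of Atf6 and the chaperones of the endoplasmic reticulum, the pathway to which intracellular Thbs4 is linked, held 0 calls and a median of -0.04. The 8 matrix partners tested held 0 calls and a median of 0.69, with 8 of 8 estimates positive.

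Between older and younger shams Col1a1 and Col3a1, the chains of fibrillar collagen, were called lower in the septum, and Col3a1 also in the RV. In Sham-H the tendon factor Scx was called higher in septum than in RV and the mesothelial gene Msln lower. No other gene of the lists was called in the comparisons outside the AOB-F LV and septum. The 2 metaxin genes tested in the AOB-F LV had a median of -0.10.

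Markers of cell types moved with Thbs4 to unequal degree. In the AOB-F LV all 8 genes that mark activated fibroblasts had a positive estimate, with a median of 1.72, and 3 rose: Postn, a matricellular protein, by 3.42 ± 0.80, Cilp by 2.48 ± 0.51 and Ltbp2, which is on both lists. Their summed level was 97.3 to 514 CPM in AOB-F and 66.8 to 76.3 CPM in Sham-LF. The 8 genes include Comp, itself a thrombospondin, and Ltbp2, the gene most like Thbs4 over the 99 libraries. This count and sum are therefore not separate from the family. General fibroblast markers summed to 5504 to 6940 CPM against 5636 to 6593 CPM, with 0 of 6 genes called and a median of 0.08, though Col1a2 is listed at or near 0 in these libraries. Macrophage markers had a median of 0.57, with Lyz2 called among 6 genes, and summed to 467 to 977 CPM against 388 to 485 CPM.

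The list of atrial genes had a median of 2.69, and 1 of 5 was called: Nppa, the natriuretic peptide that a loaded ventricle also makes. Nppa was at 17451, 3714, 2179 and 16125 CPM in the AOB-F LV, highest in the same rats 1 and 4 as Thbs4, and at 603 to 818 CPM in Sham-LF. It was at 6033, 1390, 97.1 and 8529 CPM in the AOB-F RV and at 14090, 3142, 11408 and 1813 CPM in the AOB-F septum. In each chamber of AOB-F the pair of rats highest in Nppa was thus the pair highest in Thbs4. In other groups high Nppa came with high or with low Thbs4. The RV of AOB-H 1 held 6712 CPM of Nppa and 23.3 of Thbs4, and that of PAB-H 1 held 3810 and 1.40 CPM. Myl7, an atrial light chain looked up after its values were seen, was at 5.74, 18.2, 21.7 and 268 CPM in the AOB-F LV, lowest in rat 1 and highest in rat 4. No gene was called among ventricular cardiomyocyte (median -0.17), endothelial (0.00), smooth muscle and pericyte (-0.05), tendon and valve (0.08), epicardial (0.95), immediate early (0.11) and platelet (0.42) markers. Ventricular cardiomyocyte markers summed to 47132 to 59099 CPM in the AOB-F LV and 60652 to 74720 CPM in Sham-LF, so every AOB-F rat was below every sham. Their sum includes Myh6, which alone ran from 2309 to 26618 CPM over the 99 libraries. In either direction, 1392 of 11703 genes were free of overlap in that LV comparison. Platelet markers rested on Pf4 alone. The part of cell makeup in the level of Thbs4 was not tested.

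The genes whose log2 CPM followed each member most closely were taken from 10702 genes with a mean of at least 1 CPM, by Pearson's r over the 99 libraries. These libraries share rats, depth and library series, and r is given as a description. For Thbs4 they were Ltbp2 (r = 0.92), Akip1 (0.90), Fcrl2 (0.89), Rhoq (0.86) and Mybpc2 (0.86), and Ltbp2 was at 0.94 once chamber and series means were removed. For Thbs1 they were Dab2 (0.88), Adcy7 (0.87), Camk1d (0.84), Entpd1 (0.84) and Il1r1 (0.83), with Dab2 at 0.74 after the same step. Thbs2 was followed by Lhfp (0.73), C1s, C1r and Itgbl1 (0.72), among others, and Thbs3 by Bmp1 (0.71), Aox1, Cp, Cpne7 and Ikbke (0.65). Among the members themselves r was highest between Thbs1 and Thbs2, at 0.56, before Thbs1 and Thbs4 at 0.28 and Thbs3 and Thbs4 at 0.22. With chamber and series means removed these were 0.40, 0.40 and 0.30.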

How the data were processed

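RNA from LV, septum and RV of 33 rats was sequenced as single-end reads of 75 bases. Per the study's methods the authors trimmed them with Trim Galore, aligned them with STAR to Rnor6.0 and counted genes of the UCSC annotation with featureCounts; the strand setting is not given in the sources used here. The deposited table holds raw counts, the counts the authors divided by a DESeq2 size factor per library (a normalized signal, not used for tests) and the authors' FPKM. Reads were not pooled over replicates. Samples were grouped by their labels; the tissue field of RV samples names the left ventricle, and the title was followed.

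Counts of each chamber were fitted over its 7 conditions, and comparisons of chambers over all 99 libraries, with edgeR 4.0.16 (R 4.3.3): TMM scaling, the default filter on low counts, the quasi-likelihood test and Benjamini-Hochberg adjustment over all genes tested, called at 0.05. A value with ± is a log2 fold change with its SE, or a mean with its SD where named so. DESeq2 1.42.0, other scaling, no filter, library series, replicate numbers as a block and leaving out each rat were alternatives. Chambers share rats: over the 7 Sham-H rats, deviations of RV and LV correlated at a median of 0.66 and those of septum and LV at 0.13, and rat as a block changed no member's call. Each rat is a replicate. The statistics were tested on simulated data. A member's change was followed through the alternatives where its unadjusted p was under 0.05, list genes were named where called, and the 5 genes most like each member were named, except 1 that is not reported here. Members and lists were chosen with earlier results of these data known.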

Additional observations from a re-analysis of the deposited data

Results flagged for a closer look

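Dixon's test was run 48 times, each for 1 member in 1 group of 4 to 7 rats. In 5 of the 48 tests 1 library stood apart from the rest of its group. Chance gives about 1 in 20, and the tests share rats and libraries. Thbs4 in the AOB-H LV was at 30.5 CPM in rat 3, with the next rat at 8.33 CPM. Thbs4 in the AOB-H RV was at 23.3 CPM in rat 1, with the next at 3.54 CPM. Thbs4 in the Sham-H LV was at 4.31 CPM in rat 3, with the next at 2.57 CPM. Thbs3 in the AOB-F RV was at 19.1 CPM in rat 3, with the next at 12.7 CPM, and that rat was not among those with high Thbs4 there. Thbs2 in the Sham-H LV was at 54.8 CPM in rat 6, one of the rats whose ventricles differed in the opposite direction, with the next at 46.3 CPM.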

How the results depend on the processing

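The Thbs4 call in the AOB-F LV, 1 member of 4, was kept with RLE size factors, no filter, library series as a covariate and DESeq2. With the replicate number as a block it became 0 members (log2 fold change 3.47, edgeR adjusted p = 0.0708), with only the groups compared 0 (3.64, adjusted p = 0.344) and within library series 2 0 (3.64, adjusted p = 0.0627); the cause was not tested. Genes called in all went from 98 to 366 with the series covariate, 245 with DESeq2, 2 with the block and 0 with only the groups compared or within series 2. Leaving out 1 rat gave 0 to 1 members called in the AOB-F LV and 0 to 1 in the AOB-H septum. With the block 1 member was called between older and younger shams in the LV, Thbs1 at 1.44 ± 0.33 (edgeR adjusted p = 0.0231), along with 961 genes in place of 2. Same-numbered rats of different operations were not taken as pairs, since in each chamber some pair correlated under 0.1: in the LV from -0.03 to 0.13 for AOB-F and Sham-LF and from -0.10 to 0.81 (median 0.39) for AOB-H and Sham-H, whose numbers follow the library series, and in the RV from 0.04 to 0.86 (median 0.47) for AOB-H. The block changed no other call of a member. Thbs4 in the AOB-H LV turned to -0.67 within series 3. In the AOB-F septum the genes called went from 27 to 45 without a filter, 133 with the block, 144 with DESeq2, 11 within series 3 and 0 with only the groups compared. The 15 differences followed had an unadjusted edgeR p under 0.05 in the fit used here, which favours a steady direction. Of 121 other settings for these 15, 1 reversed the direction, and of 143 that left out a rat, 0 did. Over all 88 member comparisons, other settings reversed 48 of 728 values, in 25 comparisons. Leaving out a rat reversed 74 of 916 values, in 30 comparisons. Groups of 2 to 4 older rats limit these comparisons, and Thbs4 rested on as few as 10 reads in a library.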
